A study of Equus caballus with 56 samples.

Results

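Articular cartilage (AC) of adult horses was compared with the subchondral bone (SCB) beneath it, horse by horse. The comparison took the 18 adult columns of the 54 deposited, 8 of AC and 10 of SCB, from the same 6 horses, and the 15824 genes present in both tissue tables. The joints of a horse were averaged first, so that each gene had 6 AC values and 6 SCB values in 6 pairs. RNA sequencing had been done on tissue of hind limb joints that looked healthy at dissection, with no histology of the sampled sites used here. The adults were 8 to 12 years old, and the labels give them no treatment. In adults 2, 3, 4 and 6 the fetlock, hock and stifle (metatarsophalangeal, tarsocrural and femoropatellar joints) were pooled into 1 library per tissue. In adults 1 and 5 the joints were sequenced apart, at another centre, with 3 SCB libraries each, fetlock and hock AC for adult 1, and hock and stifle AC for adult 5. AC and SCB of a horse were sequenced at the same centre. The foals of the series, 6 animals from 1 day to 4 weeks old with 18 AC and 18 SCB columns, enter only where the tissue difference is set against theirs.

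Articular cartilage is made by chondrocytes, which sit without blood vessels or nerves in a matrix of type II collagen and aggrecan, under a surface lubricated by lubricin. Subchondral bone is built by osteoblasts on type I collagen, resorbed by osteoclasts, and kept by osteocytes, and its spaces hold vessels and marrow, which in adult limbs is mostly fat. A piece of each tissue therefore holds different cells, and in such bulk samples fewer cells of a type and less RNA per cell cannot be told apart.

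The AC and SCB tables had each been normalized on their own, so all 18 adult libraries were first brought to one scale by a trimmed mean of M values over the shared genes. A level below is the log2 of CPM plus 0.1 on that scale, CPM being read counts scaled to a common library total, and a difference is the AC level minus the SCB level, averaged over the 6 horses and given with its standard error (SE). This scaling put the median difference of all genes at -0.06. The same median was -0.77 on the values as deposited and -0.94 on CPM of the library total. The files hold no counts and do not give the depth of single libraries, beyond a mean effective library of 27.0 M reads in AC and 23.3 M in SCB that follows from the lowest value of each table. Genes listed at 0 numbered 1624 in the fetlock AC library of adult 1, 92 to 859 in the other AC libraries and 21 to 114 in the SCB libraries.

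AC varied more between horses than SCB did. The root mean square distance between the AC profiles of different horses was 1.36 ± 0.28 (SD, 15 pairs of horses), that between SCB profiles was 0.71 ± 0.12 (15 pairs), and that between AC and SCB of the same horse was 1.89 ± 0.29 (6 horses). The first principal component, with 63.9% of the variance, separated the tissues. One AC library stood apart: adult 3 lay at -14.0 on that component, the other 5 AC values between -92.5 and -168, and the SCB values between 101 and 115. In AC of adult 3 the summed CPM of 11 endothelial genes was 1275, against at most 524 in the other 5 horses, and that of 8 mural cell genes was 2423, against at most 680. The sum of the type I collagen genes COL1A1 and COL1A2 was 10937, against at most 981, while that of the other 11 bone matrix and osteoblast genes was 5245, below the other 5 horses (5865 to 10825). The sum was also highest in adult 3 for monocyte genes (691 against at most 411) and marrow adipocyte genes (78.4 against at most 42.4). The same held for T and NK cell genes (14.8 against at most 4.45) and osteoclast genes (1140 against at most 880). Sums of erythroid, granulocyte, B and plasma cell, and megakaryocyte genes were not highest in adult 3. Values without this horse, its AC and SCB libraries both left out, are given beside many of the lists and genes that follow, and the part of these other cells in its values was not tested.

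In adults 1465 genes were higher in AC (9.26% of the 15824 genes tested) and 2249 were higher in SCB (14.2%), by limma's TREAT test against a fold change of 1.5 with the horse as a block and a Benjamini-Hochberg adjusted p under 0.05. The genes higher in AC had a median difference of 1.82, those higher in SCB a median of -2.85, and the whole range ran from -11.07 to 9.61. All 6 AC values lay above all 6 SCB values for 1962 genes (12.4%) and below them for 1984 (12.5%), together 24.9% of genes. A test of no change in place of the 1.5-fold threshold called 50.8% of the genes. The balance of the 2 directions depended on the scale, and on the deposited values 3.83% of all genes were higher in AC and 32.6% in SCB, the shares beside which list counts on that scale are read. Of the genes called, 39.4% were higher in AC here, 10.5% on the deposited values, 8.84% on CPM of the library total, 34.5% with median-of-ratios scaling, and 52.5% after quantile normalization. Under a test of no change the share was 47.9% on the scale used here and 58.0% by rank within a library. Ranks do not depend on how a table was scaled, and they gave 4939 genes higher in AC (31.2%) and 3575 higher in SCB (22.6%). Genes at 0 in a library share a tied rank, however, which is higher where more genes are at 0. No gene was called in opposite directions by the level and the rank, and 3498 of the 3714 genes were called in the same direction by both.

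**Figure D1:**
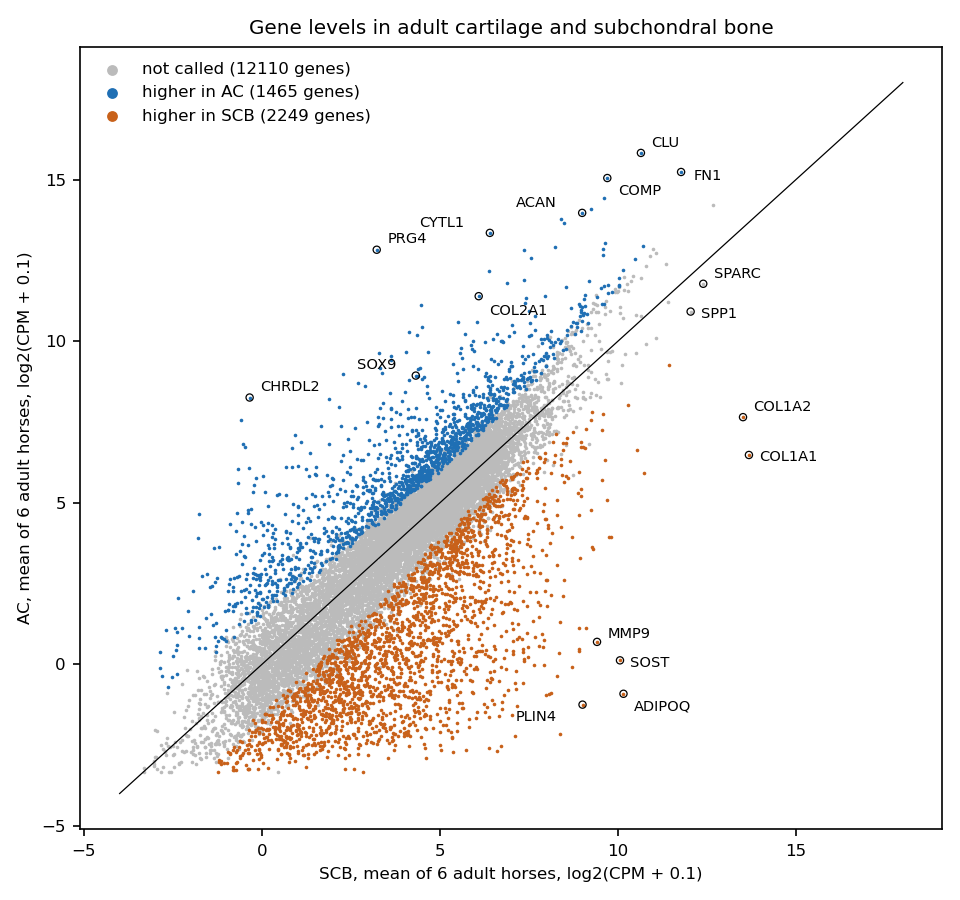
Mean level of each of the 15824 genes in adult SCB (horizontal axis) and adult AC (vertical axis), both as log2(CPM + 0.1) over 6 horses. Blue points are the 1465 genes higher in AC, orange points the 2249 higher in SCB and grey points the rest. The line marks equal levels, and PRG4 and ADIPOQ, at differences of 9.61 and -11.07, are farthest from it.

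Within each tissue a few genes took much of the sequence. The 10 most read genes together held 15.3% to 22.6% of AC reads (median 19.7%) and 5.18% to 15.6% of SCB reads (median 9.05%). These shares count reads and are not corrected for transcript length. In AC the most read gene was CLU (clusterin, a secreted chaperone), with a mean of 4.27% of reads over the 6 horses and a range from 2.78% to 6.98%. It was followed by the matrix genes FN1 (fibronectin, 2.86%) and COMP (cartilage oligomeric matrix protein, 2.66%), and then by DCN (decorin) at 1.56% and EEF1A1 (a translation elongation factor) at 1.38%. The rest of the 10 were C15H2orf40 (1.29%), ACAN (aggrecan, 1.23%), FMOD (fibromodulin, 1.09%), CILP (cartilage intermediate layer protein, 0.98%) and CYTL1 (cytokine like 1, 0.83%). In SCB the leading genes were COL1A1 (2.29%, from 0.84% to 5.88%) and COL1A2 (1.92%), the chains of type I collagen. EEF1A1 (0.86%), SPARC (osteonectin, a bone matrix protein, 0.79%) and SPP1 (osteopontin, 0.59%) were also among the 10, with FN1 at 0.51% and CST3 (cystatin C) at 0.38%. The remaining 3 were ribosomal RNA genes, of which RN18S ranged from 0.09% to 2.62% of SCB reads.

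The cartilage matrix genes were higher in AC almost without exception. Of 23 such genes in both tables, 22 (95.7%, beside 9.26% of all genes) were higher in AC and none in SCB, with a median difference of 5.16, and the counts were the same on the deposited values, on CPM of the library total and by rank. PRG4, which encodes lubricin (chr5:20181606-20199091, EquCab3.0), ran from 11.16 to 13.87 in AC (median 12.98) and from 1.61 to 5.11 in SCB (median 2.68). Its difference of 9.61 ± 0.52 (adjusted p = 9.14e-06) was the largest in favour of AC among the genes tested. ACAN, the core protein of the large aggregating proteoglycan, ran from 13.17 to 14.64 in AC (median 13.99) and from 7.33 to 10.40 in SCB (median 9.08), a difference of 4.97 ± 0.48 (adjusted p = 0.000177). COL2A1, the chain of type II collagen, spread more widely in AC, from 8.38 to 13.58 (median 11.49), but every horse remained above the SCB range of 5.10 to 7.38, and the difference was 5.30 ± 0.64 (adjusted p = 0.000542). HAPLN1, the link protein that ties aggrecan to hyaluronan, differed by 5.63 ± 0.42 (adjusted p = 4.83e-05).

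The type IX collagen chains, which sit on the surface of type II fibrils, differed by 5.72 ± 0.54 (COL9A1), 5.92 ± 0.40 (COL9A2) and 4.99 ± 0.28 (COL9A3), and their AC and SCB values did not overlap. COL11A1, a chain of the fibril core, differed by 3.85 ± 0.29 (adjusted p = 6.35e-05). COL11A2 was the member of the list that missed the test, with levels of 9.23 to 12.02 in AC and 8.35 to 9.43 in SCB and a difference of 1.42 ± 0.37 (adjusted p = 0.0968). Without adult 3 it passed (1.74, adjusted p = 0.0209). Among the noncollagenous proteins, COMP differed by 5.35 ± 0.57, CILP by 5.16 ± 0.48, CILP2 by 6.35 ± 0.41 and CHI3L1 (a secreted chitinase-like protein) by 5.94 ± 0.42, all 4 higher in AC in each of the 6 horses. CYTL1, which encodes a small secreted protein, ran from 12.31 to 14.35 in AC and from 5.66 to 8.25 in SCB, a difference of 6.95 ± 0.36 (adjusted p = 7.2e-06). MATN3, a matrilin that links matrix fibrils, was the most uneven of them, from -1.61 to 9.24 in AC (median 4.62) and from -1.54 to 2.54 in SCB (median -0.59). It was higher in AC in 5 of 6 horses (4.46 ± 0.91, adjusted p = 0.00869), and its ranges overlapped.

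COL10A1 encodes type X collagen, the collagen of hypertrophic and calcified cartilage (chr10:65866130-65873846). Its AC levels were 9.95, 10.90, 8.39, 10.55, 3.43 and 9.76 in adults 1 to 6, and its SCB levels 4.60, 3.81, 3.50, 3.53, 5.51 and 5.96. AC was above SCB in 5 of 6 horses, whereas the AC value of adult 5 lay below all 6 SCB values. Joint by joint the direction was less even, since AC exceeded SCB by 5.64 in the fetlock of adult 1, whereas AC minus SCB was -0.32 in its hock, -1.78 in the hock of adult 5 and -2.04 in that horse's stifle. SCB of adult 1 also varied, from 7.05 (fetlock) and 7.53 (hock) to -0.76 (stifle), the last joint having no AC partner. The difference was 4.34 ± 1.05 (adjusted p = 0.0199). It missed the test without adult 1 (adjusted p = 0.0514), without adult 2 (0.0657) or without adult 4 (0.0713), and was 5.63 without adult 5.

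Small leucine-rich proteoglycans, which bind collagen fibrils and set their spacing, were split. Of 13 tested, 8 (61.5%) were higher in AC and 1 (7.69%) in SCB, beside 9.26% and 14.2% of all genes, with a median difference of 3.29. The counts were 7 and 3 on the deposited values, with 23.1% in SCB where all genes had 32.6%, and 8 and 2 without adult 3. DCN ran from 13.85 to 15.14 in AC and from 9.16 to 9.98 in SCB, a difference of 4.80 ± 0.46 (adjusted p = 0.00017). FMOD (5.38 ± 0.36), PRELP (4.67 ± 0.35), OGN (osteoglycin, 5.10 ± 0.33) and ASPN (asporin, 4.56 ± 0.47) were likewise higher in AC in every horse, with no overlap. OMD (osteomodulin, first known from bone) was higher in AC by 2.12 ± 0.47 (adjusted p = 0.0259). That call was lost without adult 2 (2.11, adjusted p = 0.0661), on the deposited values and on CPM of the library total. BGN (biglycan) lay at 12.10 to 13.31 in AC and 10.70 to 11.65 in SCB without overlap, yet missed the test (1.65 ± 0.44, adjusted p = 0.0751). LUM (lumican) was not called, with medians of 9.77 and 9.93 and a difference of -0.14 ± 0.52. PODNL1, a podocan-like member, was the one higher in SCB (-2.29 ± 0.31, adjusted p = 0.00226).

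**Figure D2:**
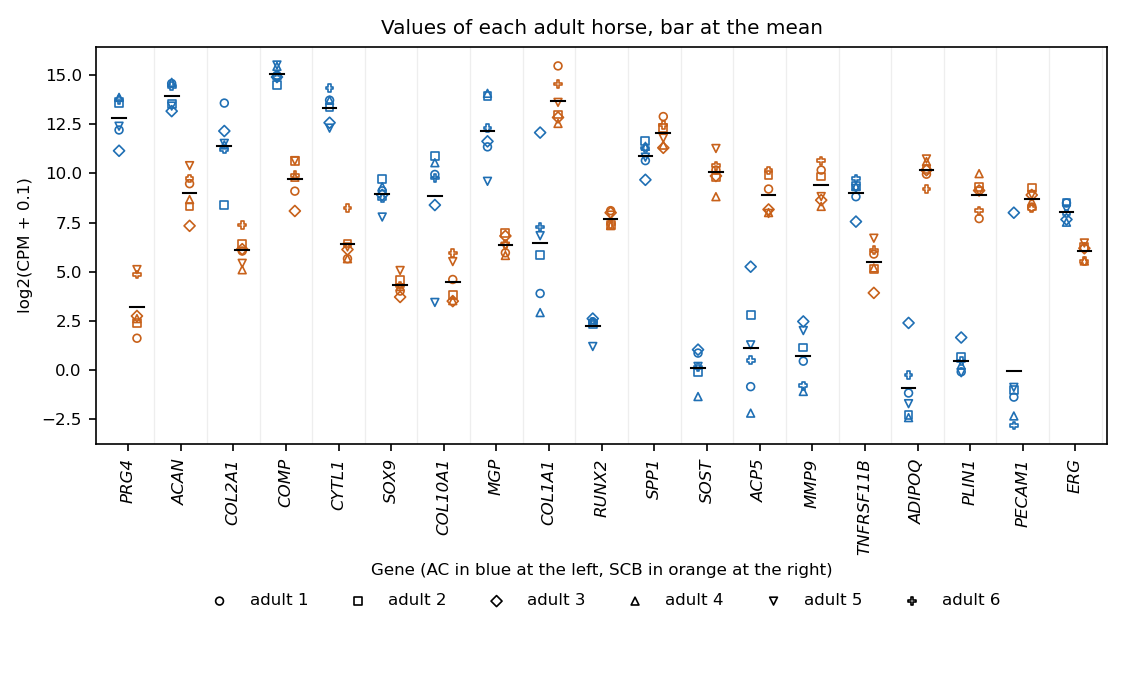
Level of 19 genes in each adult horse as log2(CPM + 0.1), with AC in blue at the left and SCB in orange at the right of each gene, a marker shape for each of the 6 horses and a black bar at the mean. The AC and SCB values of PRG4, ACAN, COL2A1, SOST and ADIPOQ are apart in every horse, while adult 5 is the low AC point of COL10A1 and adult 3 the high AC point of PECAM1.

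Of 19 regulators of chondrocytes, 14 (73.7%) were higher in AC and 4 (21.1%) in SCB, beside 9.26% and 14.2% of all genes. The same counts were found on the deposited values, where all genes had 3.83% and 32.6%, and 14 and 3 without adult 3. SOX9, the transcription factor required for the chondrocyte state, ran from 7.78 to 9.73 in AC (median 9.01) and from 3.71 to 5.06 in SCB (median 4.27). Its difference was 4.61 ± 0.32 (adjusted p = 4.2e-05), and its partners SOX5 (3.87 ± 0.24) and SOX6 (2.71 ± 0.27) were higher in AC as well. PTHLH, the parathyroid hormone-related peptide that holds chondrocytes back from hypertrophy, differed by 3.80 ± 0.35, whereas its receptor gene PTH1R was higher in SCB (-1.81 ± 0.24, adjusted p = 0.00283). IHH (Indian hedgehog, made by prehypertrophic chondrocytes) was also higher in SCB, with a median of -0.79 in AC and 3.42 in SCB and a difference of -3.37 ± 0.96 (adjusted p = 0.0456). One horse had the opposite order, and the call was lost without adult 1, 3, 4 or 5.

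The oxygen-regulated factors went in opposite directions. HIF1A, at 9.67 to 10.80 in AC and 7.60 to 8.15 in SCB, was higher in AC (2.23 ± 0.19, adjusted p = 0.000219). EPAS1, which encodes HIF-2 alpha and is abundant in endothelium, lay at 7.73 to 8.34 in AC and 9.74 to 10.90 in SCB and was higher in SCB (-2.25 ± 0.22, adjusted p = 0.000429). Neither pair of ranges overlapped. CHRDL2 (chordin-like 2), a secreted antagonist of bone morphogenetic protein (BMP) signals, ran from 4.43 to 10.11 in AC and from -1.14 to 0.88 in SCB, a difference of 8.60 ± 0.76 (adjusted p = 0.000102). GREM1 (gremlin 1, another BMP antagonist) differed by 6.0 ± 0.52 and FRZB (a secreted Wnt antagonist) by 4.54 ± 0.41. GDF5, a growth factor of the joint-forming interzone, differed by 4.97 ± 0.54. FGFR3, a receptor that restrains cartilage growth, missed the test (0.84 ± 0.34, adjusted p = 0.502).

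Genes for glycosaminoglycan synthesis, which build and sulfate the chondroitin sulfate chains of aggrecan, were higher in AC for 12 of 22 tested (54.5%) and higher in SCB for none, beside 9.26% and 14.2% of all genes, with a median difference of 1.43. On the deposited values these counts were 8 (36.4%) and 2 (9.09%), where all genes had 3.83% and 32.6%, and without adult 3 they were 11 and 1. XYLT1, the enzyme that adds the first sugar of a chain, differed by 4.09 ± 0.28 (adjusted p = 3.77e-05). CSGALNACT1, which commits the chain to chondroitin sulfate, lay at 8.57 to 9.99 in AC and 4.53 to 6.14 in SCB (3.93 ± 0.20, adjusted p = 9.14e-06). HAS2, a hyaluronan synthase, differed by 3.67 ± 0.35. CHST11, a chondroitin sulfotransferase, did not pass the test (0.48 ± 0.20), and its ranges overlapped.

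Of 13 genes of bone matrix and osteoblasts, 9 (69.2%) were higher in SCB and 1 (7.69%), OMD, in AC, beside 14.2% and 9.26% of all genes, with a median difference of -4.26. On the deposited values the counts were 10 and 0, where all genes had 32.6% and 3.83%. COL1A1 ran from 12.55 to 15.48 in SCB (median 13.31) and from 2.92 to 12.08 in AC (median 6.34), the highest AC value being that of adult 3. Its difference was -7.20 ± 1.14 (adjusted p = 0.00197) with all horses and -8.49 (adjusted p = 4.84e-05) without adult 3. COL1A2 behaved in the same way, with -5.86 ± 1.06 and -7.02. RUNX2, needed for osteoblast formation, lay at 7.35 to 8.11 in SCB and 1.19 to 2.61 in AC (-5.45 ± 0.24, adjusted p = 5.6e-06). SP7 (osterix), which acts after RUNX2, differed by -5.63 ± 0.60. ALPL, the phosphatase that clears the mineralization inhibitor pyrophosphate, differed by -3.71 ± 0.61, and PHOSPHO1, a phosphatase of matrix vesicles, by -4.26 ± 0.51.

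SPP1 was at 9.68 to 11.64 in AC and 11.31 to 12.90 in SCB, lower in AC in each of 6 horses, yet missed the test (-1.13 ± 0.42, adjusted p = 0.302). It was called higher in SCB on the deposited values, on CPM of the library total, after quantile normalization and by rank. IBSP (bone sialoprotein) was called at -1.30 ± 0.22 (adjusted p = 0.0266), and the call was lost without adult 1, 4 or 6. SPARC (-0.62 ± 0.49) and DLX5, an osteoblast homeobox factor (-0.03 ± 0.23), were not called, but SPARC was called higher in SCB on CPM of the library total, after quantile normalization and by rank.

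Osteocyte genes gave some of the largest differences. SOST, which encodes the Wnt inhibitor sclerostin (chr11:19709628-19716818), ran from 8.82 to 11.27 in SCB (median 10.03) and from -1.36 to 1.03 in AC (median 0.15), a difference of -9.93 ± 0.27 (adjusted p = 1.12e-06). PHEX, an enzyme of phosphate control, differed by -6.41 ± 0.97 and DMP1, a mineral-binding matrix protein, by -3.66 ± 0.58. FGF23, the phosphate-lowering hormone, was at 0 in 7 of 8 AC libraries and at 1.68 to 4.01 in SCB, so the size of its difference (-5.81 ± 0.38) depends on the 0.1 CPM added and was -2.79 with 1 CPM added. PDPN (podoplanin, a membrane protein of early osteocytes and of other cells) went the other way (2.58 ± 0.41, adjusted p = 0.00437). In all, 4 of 6 osteocyte genes (66.7%) were higher in SCB and 1 (16.7%) in AC, beside 14.2% and 9.26% of all genes. MEPE, another osteocyte gene, was present in the SCB table alone, with a mean of 795 CPM and a range from 308 to 1315.

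Osteoclast genes were higher in SCB for 8 of 13 (61.5%) and in AC for 1 (7.69%), beside 14.2% and 9.26% of all genes, with a median difference of -2.67. The counts were 11 and 0 on the deposited values, where all genes had 32.6% and 3.83%, and 10 and 0 without adult 3. ACP5, the tartrate-resistant phosphatase of osteoclasts, ran from 7.96 to 10.15 in SCB and from -2.20 to 5.25 in AC (-7.78 ± 0.88, adjusted p = 0.000329). MMP9, a gelatinase, ran from 8.32 to 10.65 in SCB and from -1.10 to 2.47 in AC (-8.72 ± 0.61, adjusted p = 3.39e-05). CTSK, the collagen-degrading cathepsin K, was not called, with medians of 9.23 in AC and 9.72 in SCB (-0.66 ± 0.45), but was called higher in SCB after quantile normalization and by rank. The proton pump subunit TCIRG1 lay lower in AC in each of 6 horses but missed the test (-1.17 ± 0.24, adjusted p = 0.0784), and passed it without adult 3 (-1.32, adjusted p = 0.04) or adult 5 (-1.35, adjusted p = 0.0329), on the deposited values, on CPM of the library total, after quantile normalization and by rank. NFATC1, a transcription factor of osteoclasts and other cells, was called higher in AC (1.23 ± 0.24, adjusted p = 0.0494). That call was lost without adult 2, 3, 4 or 6, on the deposited values, with median-of-ratios scaling, on CPM of the library total and after quantile normalization.

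Of 6 signals that govern osteoclasts, 1 (16.7%) was higher in AC and 2 (33.3%) in SCB, beside 9.26% and 14.2% of all genes. The counts were 1 and 4 on the deposited values, where all genes had 3.83% and 32.6%, and 1 and 3 without adult 3. TNFRSF11B, the decoy receptor osteoprotegerin, ran from 7.55 to 9.75 in AC and from 3.92 to 6.70 in SCB (3.52 ± 0.24, adjusted p = 4.82e-05). TNFSF11, the ligand RANKL that it blocks, ran from 2.37 to 3.56 in SCB and from -1.83 to 1.27 in AC (-3.38 ± 0.50, adjusted p = 0.00204). The receptor gene TNFRSF11A (RANK) was not called (-0.65 ± 0.20), except on the deposited values and on CPM of the library total, where it was higher in SCB.

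Among 9 genes that control mineral deposition, 4 (44.4%) were higher in AC and 3 (33.3%) in SCB, beside 9.26% and 14.2% of all genes, and on the deposited values 3 and 4. MGP, which encodes the mineralization inhibitor matrix Gla protein, ran from 9.60 to 14.08 in AC and from 5.83 to 6.98 in SCB (5.77 ± 0.56, adjusted p = 0.000168). ENPP1, which makes pyrophosphate, was higher in AC in every horse (1.96 ± 0.23, adjusted p = 0.0014), as was the pyrophosphate transporter ANKH (1.83 ± 0.30, adjusted p = 0.00864). NT5E, which makes adenosine from AMP, differed by 3.20 ± 0.25. ENPP1 was not called on CPM of the library total, and ANKH was called neither there nor on the deposited values.

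**Figure D3:**
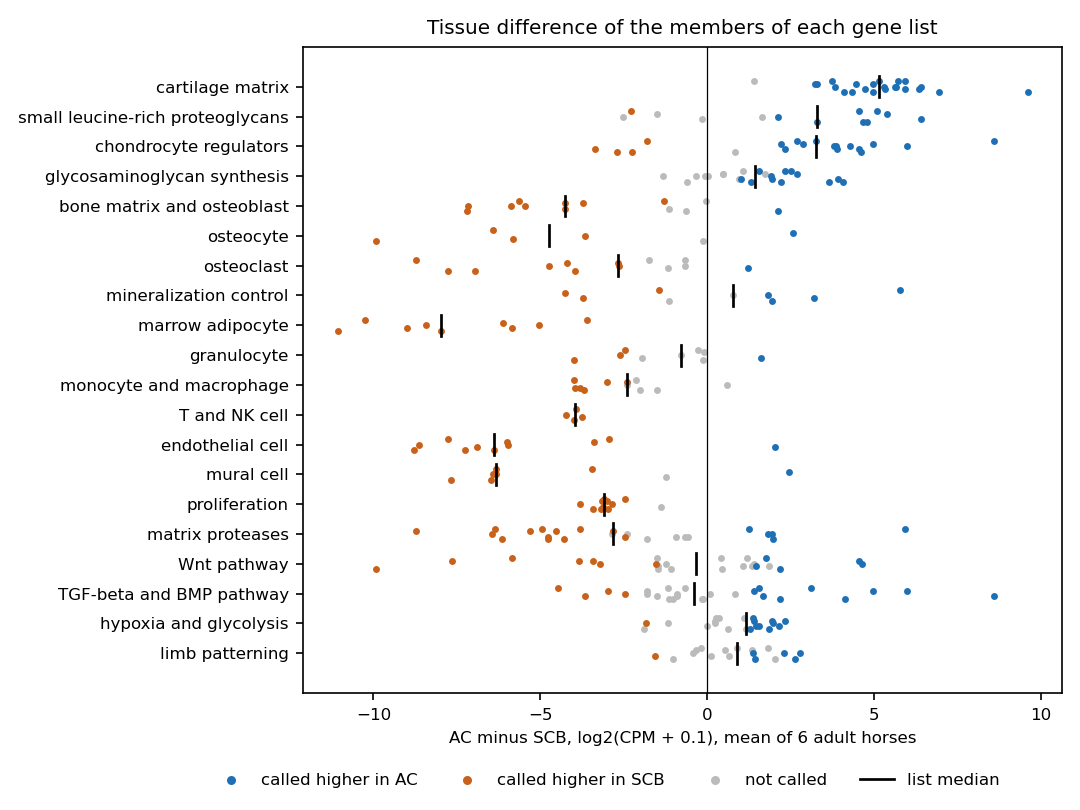
Difference between AC and SCB, as log2(CPM + 0.1) averaged over 6 adult horses, of every gene in 20 lists. Each point is a gene, blue where called higher in AC, orange where called higher in SCB and grey otherwise, and the black bar is the median of the list. The cartilage matrix list (median 5.16) lies to the right of 0, and the marrow adipocyte (-7.98), endothelial (-6.39) and mural cell lists (-6.33) lie to the left.

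Marrow adipocyte genes were higher in SCB without exception among the 9 tested (beside 14.2% of all genes), with a median difference of -7.98, on the scale used here and on the deposited values and CPM of the library total. ADIPOQ, which encodes adiponectin (chr19:27243466-27256261), ran from 9.21 to 10.74 in SCB and from -2.43 to 2.39 in AC, with adult 3 highest in AC. Its difference of -11.07 ± 0.65 (adjusted p = 1.28e-05) was the largest of all genes tested. The lipid droplet genes PLIN4 (-10.25 ± 0.89) and PLIN1 (-8.44 ± 0.32), the adipsin gene CFD (-9.0 ± 0.81) and the fatty acid carrier FABP4 (-5.84 ± 0.26) followed. Without adult 3 the differences were -11.72 for ADIPOQ, -11.0 for PLIN4 and -10.01 for CFD.

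Blood-forming and immune genes were not called or higher in SCB, with 2 exceptions. Of 5 erythroid genes tested, 3 (60%) were higher in SCB and 1 (20%) in AC, beside 14.2% and 9.26% of all genes. The 1 was HEMGN (2.61 ± 0.38, adjusted p = 0.00268). HBA, an alpha globin, was at 0 in 4 of 8 AC libraries and at 0.94 to 4.16 in SCB (-5.24 ± 0.42), and HBB, the beta globin, differed by -4.41 ± 0.74 (adjusted p = 0.00329). With 1 CPM added in place of 0.1 these were -2.56 and -2.37, and that of HEMGN was 1.38. Of the 13 erythroid genes listed, 8 were present in the SCB table alone. In the granulocyte list 3 of 9 genes (33.3%) were higher in SCB and 1 (11.1%) in AC, beside 14.2% and 9.26% of all genes, and by rank 2 in each (22.2%), beside 22.6% and 31.2%. The 1 in AC was LCN2 (lipocalin 2, 1.61 ± 0.34, adjusted p = 0.0357). The LCN2 call was lost without adult 2, 3, 4 or 6, on the deposited values and on CPM of the library total, and without adult 3 the counts were 3 and 0. MPO (myeloperoxidase) was near 0 in both, at -3.32 to -0.87 in AC and -3.03 to -0.65 in SCB, and S100A8 (a calgranulin) was not called either (-0.27 ± 0.49). By the test on ranks alone MPO was called higher in AC (adjusted p = 0.0499). LTF, lactoferrin, was higher in SCB at a low level (-2.60 ± 0.44, adjusted p = 0.00561), a call lost with 1 CPM added (-1.03) and after quantile normalization. Monocyte and macrophage genes were higher in SCB for 6 of 11 (54.5%, beside 14.2% of all genes), for 8 of 11 without adult 3, and for 9 of 11 on the deposited values and by rank. CD68, a lysosomal protein of macrophages, differed by -3.69 ± 0.66, LYZ (lysozyme) by -3.96 ± 0.56 and CD163, a scavenger receptor, by -3.98 ± 0.84, while C1QA, a complement chain that macrophages make, missed the test (-2.02 ± 0.80, adjusted p = 0.174). All 4 T and NK cell genes tested were higher in SCB (beside 14.2% of all genes), CD8A by -4.24 ± 0.69, as were 3 of 4 B and plasma cell genes, among them JCHAIN (-2.72 ± 0.56), or 2 of 4 without adult 3.

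Genes of vessel walls were low in AC of 5 horses and high in SCB of all 6. PECAM1, a junction protein of endothelial cells (chr11:15080248-15157223), was at -1.38, -1.01, 8.00, -2.34, -0.89 and -2.83 in AC of adults 1 to 6 and at 8.23 to 9.25 in SCB. The AC value of adult 3 came close to the SCB range, and the other 5 were far below it. The difference was -8.77 ± 1.20 (adjusted p = 0.000859), and -10.35 (adjusted p = 5.42e-07) without adult 3. CDH5, the endothelial cadherin, gave -8.64 ± 1.14 and, without adult 3, -10.10. Of 11 endothelial genes, 10 (90.9%) were higher in SCB and 1 (9.09%) in AC, beside 14.2% and 9.26% of all genes, with a median of -6.39. The counts without adult 3 were also 10 and 1. VWF (von Willebrand factor, of endothelium and platelets) overlapped between the tissues, at 3.26 to 8.46 in AC and 8.40 to 9.46 in SCB (-2.94 ± 0.59, adjusted p = 0.0113). The exception in direction was ERG, a transcription factor of endothelium that chondrocytes of joint cartilage also express. ERG lay at 7.52 to 8.52 in AC and 5.53 to 6.46 in SCB (2.03 ± 0.17, adjusted p = 0.000251), and it was not called on CPM of the library total.

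Mural cells, the smooth muscle cells and pericytes of vessels, gave the same picture. Of 8 genes, 6 (75%) were higher in SCB and 1 (12.5%) in AC, beside 14.2% and 9.26% of all genes, and without adult 3 these counts were 7 and 1. ACTA2 (smooth muscle actin) and MYH11 (smooth muscle myosin) reached 8.17 and 7.39 in AC of adult 3, above their SCB values of 7.06 to 7.81 and 5.72 to 7.04. Their differences were -6.48 ± 1.11 and -6.40 ± 1.05 with all horses, and -7.92 and -7.76 without adult 3. RGS5, a regulator of G protein signalling in pericytes, ran from 0.80 to 6.69 in AC and from 7.83 to 8.83 in SCB (-6.33 ± 0.66), and the receptor gene NOTCH3 differed by -7.67 ± 1.18. Without adult 3 they were -7.19 and -9.19. CSPG4, the NG2 proteoglycan of pericytes that chondrocytes also make, was the gene higher in AC (2.45 ± 0.27, adjusted p = 0.000703). The receptor gene PDGFRB missed the test with all horses (-1.23 ± 0.29, adjusted p = 0.0949) and passed it without adult 3 (-1.46, adjusted p = 0.0247).

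**Figure D4:**
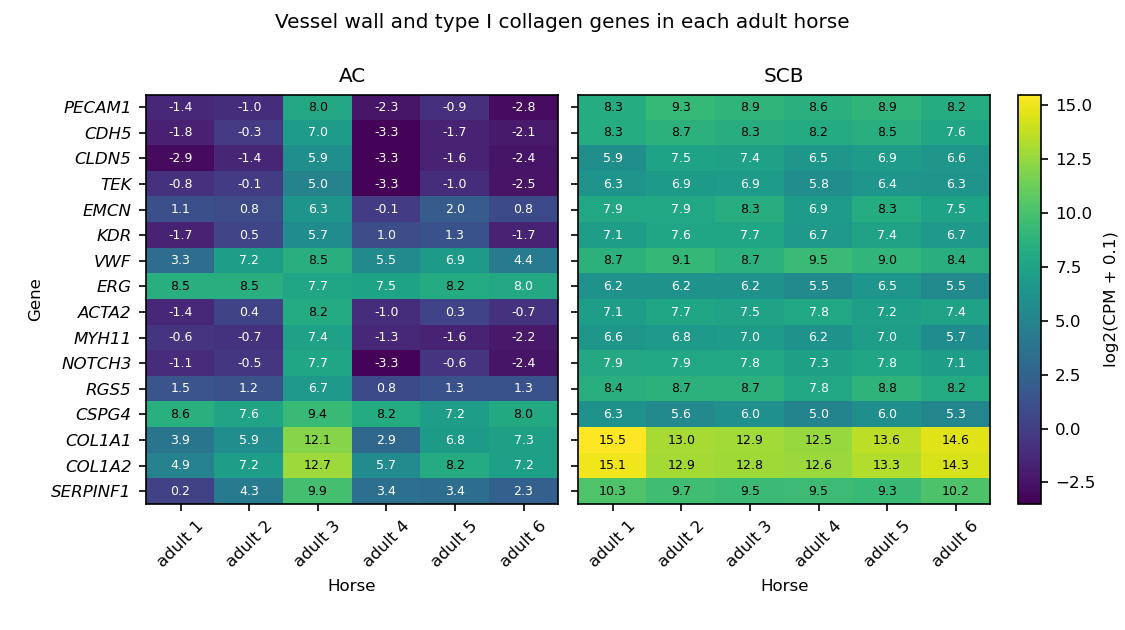
Level of 16 genes, 13 of vessel walls with COL1A1, COL1A2 and SERPINF1, in AC (left panel) and SCB (right panel) of each adult horse, as log2(CPM + 0.1), printed in each cell and coloured from dark (low) to light (high). The AC column of adult 3 resembles the SCB columns, with PECAM1 at 8.0 and ACTA2 at 8.2, while ERG and CSPG4 are higher in AC than in SCB in all 6 horses.

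Of 12 growth factors and inhibitors of vessels, 6 (50%) were higher in SCB and 2 (16.7%) in AC, beside 14.2% and 9.26% of all genes, with a median difference of -2.23, and 7 and 2 without adult 3. VEGFA, the main growth factor of endothelium, had medians of 5.80 in AC and 6.16 in SCB and was not called (-0.14 ± 0.55). Its receptor gene FLT1 (-7.30 ± 0.87, or -8.40 without adult 3) and the Tie2 ligand ANGPT1 (-6.45 ± 0.62) were higher in SCB, as was SERPINF1, the anti-angiogenic factor PEDF (-5.81 ± 1.08, or -7.05 without adult 3). The anti-angiogenic matrix proteins THBS1 (thrombospondin 1, 5.02 ± 0.32, adjusted p = 2.66e-05) and CNMD (chondromodulin, 3.23 ± 0.48) were higher in AC.

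Of 31 collagen genes tested outside the cartilage list, 4 (12.9%) were higher in AC and 12 (38.7%) in SCB, beside 9.26% and 14.2% of all genes. COL6A1, a chain of the beaded collagen around chondrocytes, was at 10.62 to 12.35 in AC and 8.43 to 9.56 in SCB (2.24 ± 0.32, adjusted p = 0.00278). The basement membrane chain COL4A1 was higher in SCB (-4.15 ± 0.67), and adult 3 had the highest AC value, 8.33, inside the SCB range of 7.58 to 8.77. Without that horse the difference was -4.95. COL22A1, a collagen of tissue junctions, was at 0 in 5 of 8 AC libraries and at 4.92 to 6.95 in SCB (-8.39 ± 0.43, adjusted p = 7.16e-06). COL27A1, a fibrillar collagen of cartilage, was called higher in AC (2.20 ± 0.51, adjusted p = 0.0293), a call lost without adult 1, 5 or 6 and on the deposited values.

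Of 24 matrix proteases, 13 (54.2%) were higher in SCB and 5 (20.8%) in AC, beside 14.2% and 9.26% of all genes. The counts were 18 and 2 on the deposited values, where all genes had 32.6% and 3.83%, and 16 and 4 without adult 3. The collagenase MMP13 ran from 5.53 to 8.80 in SCB and from -0.64 to 2.79 in AC (-6.37 ± 0.61, adjusted p = 0.000156), and the macrophage elastase MMP12 differed by -6.43 ± 0.78. MMP3 (stromelysin 1) went the other way, from 2.78 to 8.33 in AC and from -2.09 to 1.95 in SCB (5.94 ± 0.49, adjusted p = 8.13e-05). The aggrecan-cleaving enzymes were opposite to each other. ADAMTS5 was higher in AC in every horse (1.95 ± 0.33, adjusted p = 0.00865), though not called on the deposited values or on CPM of the library total, and ADAMTS4 was higher in SCB (-4.77 ± 0.81, adjusted p = 0.00324). Of 8 protease inhibitors, 2 (25%) were higher in AC and 3 (37.5%) in SCB, beside 9.26% and 14.2% of all genes. On the deposited values, by rank and without adult 3 the counts were 2 and 4. TIMP2 (3.08 ± 0.33) and TIMP3 (3.04 ± 0.27) were higher in AC with no overlap.

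In the Wnt pathway 5 of 24 genes (20.8%) were higher in AC and 7 (29.2%) in SCB, or 5 and 8 without adult 3, beside the same shares of all genes (9.26% and 14.2%). The counts were 3 and 9 on the deposited values (12.5% and 37.5%), and by rank they leaned the other way, 11 and 8 (45.8% and 33.3%), beside 31.2% and 22.6% of all genes. The ligand gene WNT10B ran from 5.53 to 6.76 in SCB and from -2.85 to -0.33 in AC (-7.65 ± 0.34, adjusted p = 5.26e-06). Besides SOST, the extracellular antagonists WIF1 (-3.84 ± 0.40), SFRP4 (-5.86 ± 1.19) and DKK1 (-3.22 ± 0.71, lost without adult 6) were higher in SCB, whereas FRZB and SFRP1 were higher in AC. RSPO2, which amplifies Wnt signals, was higher in AC (4.65 ± 0.45, adjusted p = 0.000188). AXIN2, a target gene of the pathway, was higher in AC by 1.47 ± 0.19 (adjusted p = 0.00489), a call lost on the deposited values and on CPM of the library total.

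In the transforming growth factor beta and BMP pathway 9 of 26 genes (34.6%) were higher in AC and 4 (15.4%) in SCB, beside 9.26% and 14.2% of all genes, but without adult 3 the counts were 8 and 7. On the deposited values they were 6 (23.1%) and 10 (38.5%), beside 3.83% and 32.6% of all genes on that scale. INHBA, the activin A subunit, lay at 5.25 to 6.77 in AC and 2.13 to 3.82 in SCB (3.12 ± 0.34, adjusted p = 0.000443). BMP6 differed by 1.55 ± 0.19 and BMP2 by 1.67 ± 0.38 (adjusted p = 0.0443). Both BMP calls were lost on the deposited values and on CPM of the library total, and that of BMP2 also without adult 2, 4 or 6.

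Genes of glycolysis and hypoxia were higher in AC for 10 of 21 (47.6%) and in SCB for 1 (4.76%), beside 9.26% and 14.2% of all genes, with a median of 1.17, but the counts were 5 and 3 on the deposited values, 2 and 3 on CPM of the library total, and 9 and 2 without adult 3. The glycolytic enzymes PGK1 (2.17 ± 0.14, adjusted p = 6.95e-05) and ENO1 (2.33 ± 0.25, adjusted p = 0.000596) were tight, with PGK1 at 8.47 to 8.84 in AC and 6.36 to 6.61 in SCB. The glucose transporter genes were opposite, SLC2A1 being higher in AC (1.86 ± 0.16) and SLC2A3 in SCB (-1.83 ± 0.39, adjusted p = 0.0292, lost without adult 2). SLC2A1 was not called on CPM of the library total, nor was LDHA (1.37 ± 0.19), the lactate-forming enzyme.

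Of 76 ribosomal protein genes, 26 (34.2%, beside 9.26% of all genes) were higher in AC and none in SCB, but on the deposited values and on CPM of the library total none was called in either direction, and by rank 18 (23.7%) were higher in AC and 3 (3.95%) in SCB, both under the shares of all genes by rank (31.2% and 22.6%). Without adult 3 the count in AC was 13. Together they took 5.76% to 23.3% of AC reads, with adult 4 highest, and 5.07% to 6.76% of SCB reads. Of 69 respiratory chain genes, 3 (4.35%) were higher in AC and 1 (1.45%) in SCB, both under the shares of all genes, and on the deposited values 0 and 4. By rank 31 (44.9%) were higher in AC, above the 31.2% of all genes, and 5 (7.25%) in SCB.

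Among channels that sense load and osmotic change, TRPV4, a calcium channel of chondrocytes, ran from 7.08 to 8.63 in AC and from 2.45 to 4.71 in SCB (4.03 ± 0.25, adjusted p = 2.66e-05). The stretch-gated channel PIEZO2 was at 5.83 to 8.37 in AC and 3.61 to 3.86 in SCB (2.97 ± 0.33, adjusted p = 0.000506), while PIEZO1 did not pass the test (-0.40 ± 0.24). KCNJ15, an inward rectifier potassium channel, differed by 3.61 ± 0.26. Of the 10 channel genes listed, these 3 (30%) were higher in AC, 4 without adult 3, and 1 (10%) was higher in SCB, beside 9.26% and 14.2% of all genes. By rank 5 were higher in AC and 4 in SCB. The 1 gene was GJA1 (connexin 43), at 5.51 to 7.80 in AC and 8.06 to 9.56 in SCB (-2.37 ± 0.34, adjusted p = 0.00288), with adult 3 the highest AC value.

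Hindlimb identity and position genes were in part higher in AC, 5 of 17 (29.4%) against 1 (5.88%) in SCB, beside 9.26% and 14.2% of all genes, and 3 against 2 on the deposited values. PITX1, which specifies the hind limb, lay at 4.97 to 6.14 in AC and 2.40 to 3.48 in SCB (2.63 ± 0.15, adjusted p = 2.99e-05), and HOXA13, a gene of the distal limb, differed by 2.79 ± 0.25. HOXD10 was called in the other direction (-1.56 ± 0.34, adjusted p = 0.0399) and was lost without adult 2, 4 or 5. The joints sampled were not the same in both tissues of adults 1 and 5, and with joints matched PITX1 and HOXA13 were called and HOXD10 was not (-1.40, adjusted p = 0.0712).

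Proliferation genes were low in both tissues and higher in SCB for 10 of 11 (90.9%, beside 14.2% of all genes). TOP2A, a topoisomerase of dividing cells, ran from 1.16 to 3.03 in SCB and from -3.32 to 0.26 in AC (-3.82 ± 0.52, adjusted p = 0.00121), and MKI67 differed by -3.19 ± 0.51. Of 12 immediate early genes, 4 (33.3%) were higher in AC and 1 (8.33%) in SCB, beside 9.26% and 14.2% of all genes. The counts were 5 and 1 without adult 3, and 2 in each (16.7%) on the deposited values, where all genes had 3.83% and 32.6%. FOS (2.15 ± 0.31) and JUNB (2.05 ± 0.17), the subunits of the AP-1 factor, were higher in AC in each of the 6 horses, FOS not on CPM of the library total.

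Complement and adhesion genes included the most read gene of AC. CLU, an inhibitor of the terminal complement complex as well as a chaperone, lay at 15.01 to 16.79 in AC and 10.03 to 11.06 in SCB (5.18 ± 0.67, adjusted p = 0.000748). CD55, a membrane inhibitor of complement, differed by 3.18 ± 0.22 (adjusted p = 4.83e-05). Of 11 complement genes, 4 (36.4%) were higher in AC and 2 (18.2%) in SCB, CFD among the latter, beside 9.26% and 14.2% of all genes. The counts were 4 in each without adult 3, and 3 in each (27.3%) on the deposited values, where all genes had 3.83% and 32.6%. FN1 was higher in AC without overlap (3.46 ± 0.77, adjusted p = 0.0152), but the call was lost without adult 2, 4 or 6. Of 22 integrin genes, 9 (40.9%) were higher in SCB and 2 (9.09%) in AC, where all genes had 14.2% and 9.26%, with 10 and 0 on the deposited values and 9 and 1 without adult 3.

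Markers of tissue that could be taken along at dissection were also read. Of 3 skeletal muscle genes in both tables none was called, and in AC of adult 3 DES (desmin, also made by smooth muscle) was at 102 CPM against at most 21.6 in the other 5 AC values. The sum of the other 2 genes was not highest in adult 3 and reached 4.70 in adult 4. Of 5 synovium and tendon genes, 2 were higher in AC and none in SCB, with a median of -0.01, none was called on CPM of the library total, and by rank 1 was higher in SCB. Their summed CPM in AC was 1779 in adult 3 and at most 1599 in the other 5 horses. That of the Schwann cell genes was not highest in adult 3. Of 4 Schwann cell genes, 1 was higher in each tissue, and 3 in SCB on the deposited values. Lists this short say little beside the 9.26% and 14.2% of all genes, and none of the 3 megakaryocyte genes tested was called.

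The largest differences in favour of AC, among genes with a symbol, the same direction in 6 horses and at least 10 CPM in AC, were those of PRG4, CHRDL2, SEMA3A, CAPN6, IGSF10, CYTL1, CRISPLD1, MYOC, ABI3BP and LRRN1. SEMA3A, a secreted repellent of nerve fibres, ran from 7.02 to 8.27 in AC and from -1.64 to 0.62 in SCB (8.17 ± 0.26, adjusted p = 1.59e-06). CAPN6, a calpain without protease activity, differed by 7.36 ± 0.53 and IGSF10, an immunoglobulin superfamily protein, by 7.21 ± 0.34. ABI3BP, a matrix protein, was at 10.46 to 12.09 in AC and 3.39 to 5.33 in SCB (6.66 ± 0.25, adjusted p = 3.49e-06). CRISPLD1 (6.70 ± 0.45), MYOC (myocilin, 6.70 ± 0.51) and LRRN1 (6.43 ± 0.68) completed the 10, and the AC and SCB values of none of them overlapped.

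The largest in favour of SCB, by the same rule, were ADIPOQ, TRARG1, PLIN4, SOST, KIT, CDH15, CDH2, CFD, ADGRF5 and CD300LG. TRARG1, a fat cell protein of glucose transporter traffic, ran from 6.49 to 9.98 in SCB and was at 0 in 5 of 8 AC libraries (-10.54 ± 0.75, adjusted p = 3.39e-05). KIT, the stem cell factor receptor, ran from 6.25 to 7.87 in SCB (-9.32 ± 0.59, or -9.99 without adult 3), with adult 3 the highest AC value at 1.90. The cadherin genes CDH15 (-9.29 ± 0.39) and CDH2 (-9.25 ± 0.47) lay at 6.04 to 7.33 and 6.28 to 7.52 in SCB, and each was at 0 in 4 of 8 AC libraries. ADGRF5, an adhesion receptor of endothelium, was at 6.39 in AC of adult 3 and at -2.10 in the AC median (-8.98 ± 1.05, or -10.33 without adult 3). CD300LG, an endothelial receptor, differed by -8.96 ± 0.45. For the genes at 0 in several AC libraries the size depends on the CPM added, and with 1 CPM in place of 0.1 the differences were -8.02 for TRARG1, -6.72 for KIT, -6.52 for CDH15 and -6.23 for CD300LG.

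Some genes had passed the study's filter, 1 CPM in at least 2 libraries of either age, in 1 tissue alone and could not be tested. The AC table held 616 such genes, 27 of them with an adult mean of at least 10 CPM, and that of SCB held 2185, 43 of them at that level. In AC the highest were MSMP (a microseminoprotein, 367 CPM, from 80.0 to 582), DEFB4B (a beta defensin, 334 CPM), CHODL (chondrolectin, 221 CPM), COL6A5 (51.9 CPM) and DACT2 (49.5 CPM). DEFB4B ranged from 1.84 to 1862 CPM between horses. COL6A5 was at 310 CPM in the highest horse and had a median of 0.32. In SCB they were MEPE, the serotonin transporter gene SLC6A4 (96.8 CPM), CYP2F1 (94.2 CPM), ENPP6 (91.2 CPM) and the lipid droplet gene CIDEC (64.7 CPM).

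The tissue difference of adults was set against that of foals in a limma fit over both ages with an interaction of tissue and age. It differed by more than 1.5-fold in 1966 genes (12.4%), being larger toward AC in adults for 733 (4.63%) and smaller for 1233 (7.79%). Across the 15824 genes, which are not independent, the adult and foal differences had a Pearson r of 0.64 and a Spearman rho of 0.52. The 4 pooled adults were also sequenced at another centre than the foals, and the part of centre and pooling in this contrast was not tested apart from the fit that follows. With the 2 adults and 2 foals sequenced joint by joint at 1 centre on 1 instrument model alone, 54 and 221 genes were called.

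Of 23 cartilage matrix genes, 3 had a smaller difference in adults, beside 7.79% of all genes, and the median difference of the list was 5.16 in adults and 6.58 in foals. CYTL1 differed by 6.96 in adults and 10.50 in foals, COL11A2 by 1.43 and 4.39. SOX9 differed by 4.63 and 7.01, though that contrast between ages (-2.38 ± 0.60, adjusted p = 0.0426) was lost without adult 2, 4, 5 or 6 and without foal 1, 2, 4 or 5. In the opposite direction, OGN differed by 5.12 in adults and 1.25 in foals (adjusted p = 0.000196), DCN by 4.82 and 2.40, and OMD by 2.14 and -0.54. COL10A1 had a difference of 4.36 in adults and -1.51 in foals, but its foal AC levels ran from 2.90 to 12.16 and the contrast between ages missed the test (5.86 ± 2.01, adjusted p = 0.0844).

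The bone matrix genes SPP1 and IBSP were far closer between the tissues in adults. SPP1 differed by -1.11 in adults and -6.14 in foals (adjusted p = 0.000218), its AC level being 9.54 to 11.53 in adults and 5.36 to 8.26 in foals, without overlap. IBSP differed by -1.29 and -5.77 (adjusted p = 0.0255, or 0.0569 without adult 2). RUNX2 went the other way, with -5.43 in adults and -1.63 in foals, its AC level being 1.06 to 2.48 in adults and 4.28 to 7.12 in foals. SOST (-9.90 in adults and -5.66 in foals) and MMP9 (-8.69 and -3.03) were also further apart in adults, SOST through its SCB level (4.70 in foals, 9.91 in adults) and MMP9 through its AC level (7.43 in foals, 0.58 in adults).

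Vessel wall genes were further apart in adults for 6 of 11 endothelial and 6 of 8 mural cell genes, beside 7.79% of all genes. Among them the call of CLDN5 was lost without 9 of the 12 horses in turn, and that of ACTA2 without 10. PECAM1 differed by -8.72 in adults and -1.99 in foals (adjusted p = 0.0112), its AC level running from 1.34 to 6.62 in foals. AC of adult 3, at 7.87, lay above all 6 foals, and without that horse the contrast between ages was -8.29 in place of -6.73. NOTCH3 (-7.61 and -0.97) and RGS5 (-6.31 and -1.16) were also further apart in adults. Of the 9 granulocyte genes, 8 were closer between the tissues in adults (beside 4.63% of all genes with a contrast in that direction), MPO at -0.11 against -10.34 and S100A8 at -0.25 against -9.68, and their foal SCB levels ran from 6.13 to 9.69 and from 6.50 to 10.59. S100A12 (-0.08 and -8.69) and OLFM4 (0.14 and -8.35), also neutrophil genes, followed.

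Among the genes with the largest contrast between ages, SLC14A1, the urea transporter UT-B, had a mean AC level of 8.06 in adults and -1.94 in foals, with SCB at 1.75 and 1.00. Its tissue difference was 6.32 in adults and -2.93 in foals, a contrast of 9.25 ± 1.23 (adjusted p = 0.000506). The mean difference of KCNJ15 also changed sign, with 3.61 in adults and -2.89 in foals, and so did that of CD55, with 3.20 and -0.71. On the other side the mean differences of SRCIN1 (-4.27 in adults and 3.20 in foals), ISLR2 (-4.72 and 2.60) and the glutamate receptor gene GRIN2D (-2.41 and 4.25) changed sign. The tissue difference in foals alone was not tested. Foal AC and SCB ranges overlapped for SLC14A1, KCNJ15, ISLR2 and CD55 (for CD55, AC 3.90 to 5.08 and SCB 4.22 to 6.25). SMPD3, a sphingomyelinase of mineralizing cartilage and bone, was -6.93 in adults and 0.05 in foals, with a mean AC level of -0.67 in adults and 7.58 in foals.

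**Figure D5:**
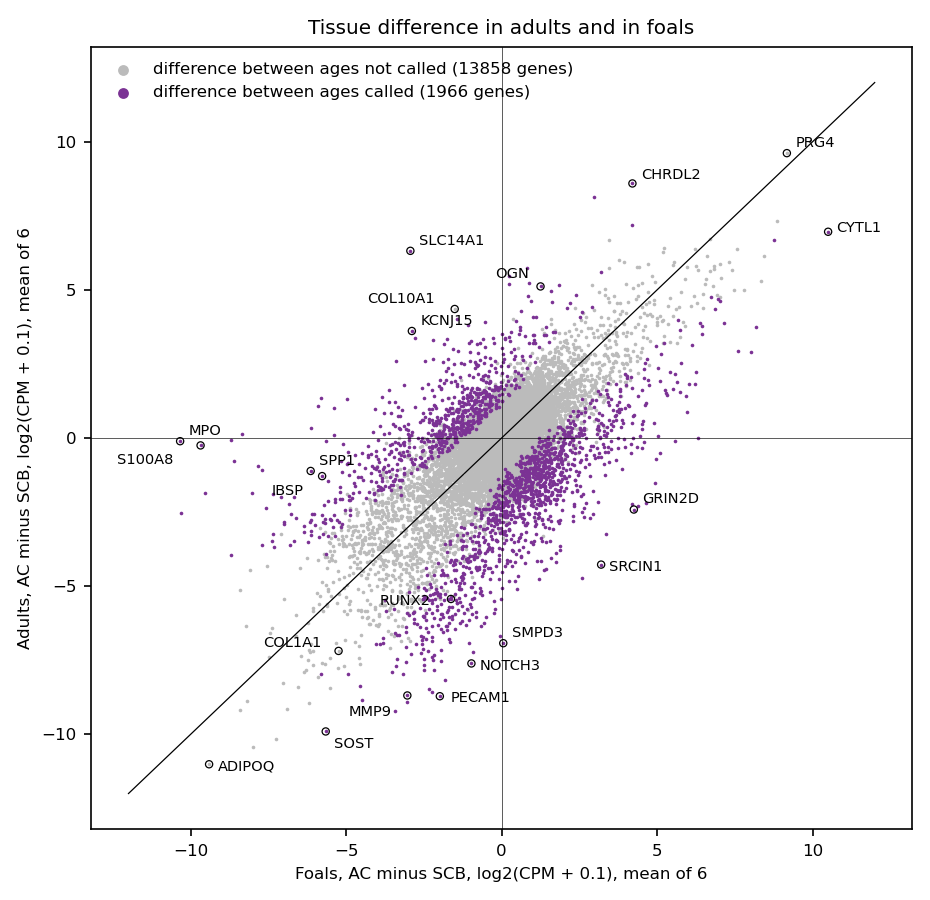
Difference between AC and SCB in foals (horizontal axis) and adults (vertical axis), each the mean of 6 horses as log2(CPM + 0.1). Purple points are the 1966 genes with a contrast between ages past the test and grey points the rest, and the line marks equal differences. SLC14A1 lies far above the line at 6.32 in adults and -2.93 in foals, MPO at -0.11 and -10.34, and PECAM1 below it at -8.72 and -1.99.

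The adult differences were also read within each sampling scheme. In the 2 adults sampled joint by joint, whose values are part of the fit, the mean of the 2 horses had the direction of the call for all 1465 and all 2249 called genes, though a single horse or joint could go against it, as for COL10A1. Of 4002 genes called in the 4 pooled adults alone, 3758 (93.9%) had the same direction in the mean of the other 2. No share over all genes is set beside that 93.9%. Where the same joint was sampled in both tissues (adult 1 fetlock and hock, adult 5 hock and stifle), 3420 of the 3714 called genes (92.1%) had the direction of the call in each of the 4 joints. Of all genes, called or not, 45.2% had the direction of their mean difference over the 6 horses in each of the 4. These libraries are part of the fit that made the calls, so this is a description and no independent check. Calls of some genes named above also turned on the scale. After quantile normalization the calls of COL6A1, FN1, ANKH, COL27A1, LDHA, OMD, IHH and HOXD10 were lost. LUM and PIEZO1, not called here, were higher in SCB by rank, and C1QA and PDGFRB were higher in SCB by rank, on the deposited values and on CPM of the library total. With 1 CPM added in place of 0.1 the difference was 3.76 for COL9A1, -4.73 for FLT1, -2.64 for ADAMTS4, -1.66 for MKI67 and -2.07 for TOP2A, all still called, and -1.97 for IHH, which was not. For a single gene with 1 direction in 6 horses, the exact two-sided sign-flip permutation test over the pairs gives p = 0.03125, the smallest that 6 pairs allow.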

How the data were processed

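RNA was sequenced as 100-base paired reads from AC and SCB of 6 adults and 6 foals. Per the study's methods and processing notes, the authors checked read quality with fastp 0.19.5 and MultiQC 1.6, trimmed with Trimmomatic 0.38, estimated transcript counts with Salmon 0.11.3 on EquCab3.0, kept genes with at least 1 CPM in 2 libraries, and normalized each tissue separately. The deposited values are log2 CPM from the authors' edgeR, with a prior count of 3. Transcript counts and library depths were not used here, and the values give the precision only through the spread between horses.

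The prior was subtracted and CPM were taken as shares of the library total, rescaled over the shared genes by an unweighted trimmed mean of M values (30% of M and 5% of A values trimmed per side), and expressed as log2(CPM + 0.1). Joints were averaged per horse. The fit was limma-trend (limma 3.58.1, statmod 1.5.0, R 4.3.3) with the horse as a block and 5 residual degrees of freedom, TREAT against a 1.5-fold change, Benjamini-Hochberg adjusted p under 0.05. The fit over both ages had 10 residual degrees of freedom and its own scaling over 54 columns, so its adult differences vary slightly. Ranks within a library were tested as normal scores. Horses are the replicates, and AC and SCB of the same number come from the same animal. The deviations of AC and SCB from their tissue means correlated at 0.25 to 0.39 within a horse.

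Tested on simulated data for the adult comparison over 15824 genes, the fit recovered 0%, 60%, 82% and 94% of 50 genes changed 2-, 4-, 8- and 16-fold, with 1 false call. For the contrast between ages it recovered 0%, 56%, 74% and 98%. All other genes were left unchanged in the simulated data, whereas 23.5% of genes were called in the adult comparison. The adjusted p depends on that share, so these recoveries do not give the sensitivity of the fits in the real data. Called adult differences there went down to 0.97 toward AC and -1.04 toward SCB.

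Named genes were members of the gene lists, the 10 genes most read in each tissue, the 10 largest called differences per direction with at least 10 CPM and 1 direction in 6 horses, the 5 largest contrasts between ages per direction, and the 5 highest genes of each single table. The comparison, members and lists were chosen with earlier results of these data known. Alternatives covered scaling, the CPM added, filter, fold tested, block, joints and leaving out each horse.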

Additional observations from a re-analysis of the deposited data

Results flagged for a closer look

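Of 340 sets of 6 values checked, a gene in AC or SCB of the adults, 31 (9.12%) had a horse whose gap to the nearest other was too large a part of the range by Dixon's test, where chance gives about 5%. In 17 of the 31 it was a high AC value of adult 3. These levels, as log2(CPM + 0.1), were 8.00 for PECAM1, 6.99 for CDH5, 5.95 for CLDN5, 6.31 for EMCN, 4.41 for FLT1 and 6.39 for ADGRF5 among endothelial genes. They were 8.17 for ACTA2, 7.39 for MYH11, 7.73 for NOTCH3 and 6.69 for RGS5 among mural cell genes. The others were 5.21 for PHEX, -2.81 for FGF23, 1.26 for DCSTAMP, 4.15 for CFD, 2.52 for ADAMTS4, 1.90 for KIT and 7.80 for GJA1. For FGF23 every other AC library lay at -3.32, the lowest level possible, so its -2.81 was itself near the floor and no high level. The summed markers of vessels, monocytes and fat were highest in adult 3 among the AC values, as was DES of the skeletal muscle list but not its other 2 genes, and their part in these values was not tested. In SCB of the same horse FLT1 (6.19) and MYOC (2.40) were the high values.

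AC of adult 5 was low for COL10A1 (3.43), CHRDL2 (4.43), HAS2 (1.68) and RUNX2 (1.19). AC of adult 4 was low for SP7 (-3.32, a value of 0 CPM) and AC of adult 1 for INHBA (5.25). SCB of adult 4 was low for PTHLH (-1.47), ANGPT1 (4.31) and INHBA (2.13). SCB of adult 1 was high for MATN3 (2.54) and CHST11 (5.88), and SCB of adult 6 for CYTL1 (8.25).

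The difference between AC and SCB differed between adults and foals, by limma's interaction test, in 40 of the named genes. Of the 40 calls, 6 were lost without 1 horse: ACTA2 for 10 of the 12 horses in turn, CLDN5 and CHRDL2 for 9, SOX9 for 8, WIF1 for 7 and IBSP for 1. Given as the adult minus the foal difference, it was 10.23 for MPO, 9.43 for S100A8, 8.62 for S100A12, 8.50 for OLFM4, 7.79 for LTF and 4.77 for LYZ. Vessel wall genes had -6.73 (PECAM1), -6.32 (CDH5), -4.30 (CLDN5), -4.02 (EMCN), -4.97 (ACTA2), -5.68 (MYH11), -6.64 (NOTCH3) and -5.16 (RGS5). Cartilage and proteoglycan genes had -2.96 (COL11A2), -3.54 (CYTL1), -2.38 (SOX9), -2.64 (PTHLH), -2.28 (PRELP), 4.39 (CHRDL2), 2.42 (DCN), 3.87 (OGN), 2.67 (OMD) and 3.06 (HAS2). PTHLH had mean SCB levels of -0.61 in adults and -2.48 in foals, near the floor, and mean AC levels of 3.18 and 3.96. The size of this and other contrasts with a mean level so low depends on the 0.1 CPM added. Bone genes had 5.03 (SPP1), 4.49 (IBSP), -3.80 (RUNX2), -4.25 (SOST), -5.66 (MMP9) and 3.66 (TNFRSF11A). The Wnt genes RSPO2 and WIF1 had 3.69 and -3.37, and the fat gene FABP4 had -2.10. The rest were 9.25 for SLC14A1, 6.50 for KCNJ15, 3.90 for CD55, -7.47 for SRCIN1, -7.31 for ISLR2, -6.98 for SMPD3 and -6.67 for GRIN2D.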

How the results depend on the processing

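Against 1465 genes higher in AC and 2249 higher in SCB, the deposited values gave 606 and 5151, and CPM of the library total 520 and 5360. A test of no change gave 3853 and 4191, the same test on ranks 4939 and 3575, and a fold of 2 gave 709 and 1496. Without the replicate block the counts were 1370 and 2113, and 4365 and 3335 by rank. Leaving out each horse gave 1062 to 1500 and 1808 to 2366, and by rank 3812 to 5062 and 2860 to 3509. For the contrast between ages, with 733 and 1233 genes, a test of no change gave 2728 and 3133, a fold of 2 gave 293 and 580, adults 1 and 5 with foals 2 and 3 alone 54 and 221, and leaving out each horse 506 to 873 and 862 to 1399. The fit of 4 horses used fewer samples, and the other causes were not tested. Median-of-ratios and quantile scaling, a filter at 1 CPM, 1 CPM added, matched joints, single libraries with the horse as a random effect, and the 4 pooled adults alone kept the adult counts within 1.5 times, as did leaving out the fetlock AC library of adult 1, chosen after seeing the data. Of 170 genes named or checked, 151 were called, 138 of them without any 1 horse and 13 not. MPO, near 0 in both tissues, reversed under ranks (0.55, adjusted p = 0.0499). Without the block 6 of the 170 lost their call and 1 gained it. Low AC values, down to 0 CPM, limit the size of the largest differences toward SCB.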
